A study of Mus musculus with 24 samples.

Results

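The tumour suppressor p53 (Trp53) and 9 of its target genes, namely Mdm2, Ccng1, Cdkn1a, Pmaip1, Bbc3, Bax, Fas, Phlda3 and Trp53inp1, were followed in mouse airway epithelium held under cigarette smoke or clean air. The genes were taken by symbol from the deposited table of 25239 genes. All 10 were found, and all 10 were among the 13549 genes tested, those whose normalised counts averaged 10 or more over the libraries. Tracheal epithelial cells of FVB/NJ mice, wild-type animals 7 to 8 weeks old, had been differentiated for 10 to 14 days on inserts with their upper face in air, and were then exposed for 10 days. The groups were female smoke, female air, male smoke and male air, with 6 inserts and so 6 RNA libraries each. Smoke groups received the smoke of 2 cigarettes per exposure, burned over about 8 minutes, and air groups received humidified air in its place. The labels tie no insert to an animal or a cell preparation. Spread between inserts, which may be technical, is therefore all that the p-values weigh, and sex cannot be told apart from whatever else separated the female from the male preparations.

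The protein p53 is a transcription factor that is held at a low level in unstressed cells, because Mdm2 binds it and marks it for degradation. DNA damage and other stresses release it from Mdm2, so that much of its control lies in the protein and not in the Trp53 transcript. Its targets include its own inhibitors, genes that halt the cell cycle, genes that permeabilise mitochondria, and a death receptor at the cell surface. In airway epithelium, p53 is best known as a gene mutated in lung tumours of smokers and, in mice, as a brake on the renewal of club cells.

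The promoter windows of Cdkn1a, Mdm2, Ccng1 and Bax are shown because these 4 targets had a positive fold change in each sex, whether or not it passed the test, and a match to the p53 half-site near an annotated start. Each window holds the 250 bases before and the 50 bases after an annotated start site, on the strand of the gene, from RefSeq on GRCm38.p6. The windows are chr17:29090729-29091028 on the plus strand for Cdkn1a, chr10:117710709-117711008 on the minus strand for Mdm2, chr11:40755237-40755536 on the minus strand for Ccng1 and chr7:45466849-45467148 on the minus strand for Bax. Capitals mark every match to that half-site, the 10-base consensus that 1 pair of p53 subunits contacts and that reads the same on both strands.
Cdkn1a: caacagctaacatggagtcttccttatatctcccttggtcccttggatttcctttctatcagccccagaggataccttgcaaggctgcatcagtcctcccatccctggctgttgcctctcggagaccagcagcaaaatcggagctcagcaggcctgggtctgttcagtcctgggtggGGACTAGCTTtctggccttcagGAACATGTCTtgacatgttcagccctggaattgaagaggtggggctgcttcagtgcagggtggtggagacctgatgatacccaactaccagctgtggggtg
Mdm2: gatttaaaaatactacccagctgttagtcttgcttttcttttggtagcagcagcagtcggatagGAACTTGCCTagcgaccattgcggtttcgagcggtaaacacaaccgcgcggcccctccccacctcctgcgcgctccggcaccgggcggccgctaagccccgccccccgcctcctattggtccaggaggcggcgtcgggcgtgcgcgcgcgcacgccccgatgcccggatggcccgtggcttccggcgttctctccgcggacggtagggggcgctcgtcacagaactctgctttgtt
Ccng1: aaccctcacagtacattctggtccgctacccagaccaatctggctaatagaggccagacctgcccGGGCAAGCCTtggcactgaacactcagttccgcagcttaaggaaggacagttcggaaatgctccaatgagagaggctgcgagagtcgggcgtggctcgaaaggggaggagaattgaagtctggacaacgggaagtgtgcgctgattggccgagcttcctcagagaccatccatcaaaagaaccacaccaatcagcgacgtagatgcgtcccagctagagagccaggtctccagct
Bax: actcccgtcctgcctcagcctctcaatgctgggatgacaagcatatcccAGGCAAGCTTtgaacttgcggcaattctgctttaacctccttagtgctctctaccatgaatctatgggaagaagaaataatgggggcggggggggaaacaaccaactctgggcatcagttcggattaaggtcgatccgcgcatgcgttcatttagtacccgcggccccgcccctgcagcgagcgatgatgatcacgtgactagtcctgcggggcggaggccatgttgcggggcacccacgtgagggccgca
Counted from the start site, the half-sites began at position -73 in Cdkn1a, with a second one after it, and at -186 in Mdm2, -185 in Ccng1 and -201 in Bax. The Cdkn1a window belongs to the upstream one of its 2 annotated start sites, and the window of the other start site held none. Of 32851 windows of this length over all genes, 2745 (8.36%) held a half-site, and 24 (0.0731%) held a pair separated by at most 13 bases, as the Cdkn1a window does. Windows are reported here for 8 of the 10 genes, of which 5 held a half-site, the other being Trp53 at -75. The windows of Bbc3, Fas and Phlda3 held none. That of Pmaip1 is not reported here, and no window was matched for Trp53inp1. A match is a run of letters and not a measured binding site, and a window without one says nothing of p53 elsewhere at that gene.

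The values are counts that the authors had normalised between libraries, and the 23 libraries whose whole reads could be recovered held 16038813 to 24485024 reads. No pair of these inserts within a group agreed within sampling noise, and each insert counts as 1 sample. Krt5, the keratin of basal cells, lay above 38677 in all 24 libraries, while Ptprc, which marks all leukocytes, averaged 2.47. In 2 libraries gene levels drifted with the exon length of the gene. In female smoke insert 4, genes of up to 1905 bases deviated from the group median by 0.49 (log2, median over genes) and genes of 4629 bases or more by -0.47. In female air insert 1 the same 2 deviations were 1.14 and -0.85. Of the 10 genes, Bax has the shortest exons (869 bases) and Trp53inp1 the longest (5432 bases). In female air insert 1, Bax lay 1.91 above its group median and Fas 1.24 above, whereas Trp53inp1 lay at -0.94. In female smoke insert 4, Bax lay 0.97 and Fas 0.67 above. Results are given with both libraries, and for the 10 genes also without them where that changed a call. Leaving them out was chosen after seeing the data.

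**Figure D1:**
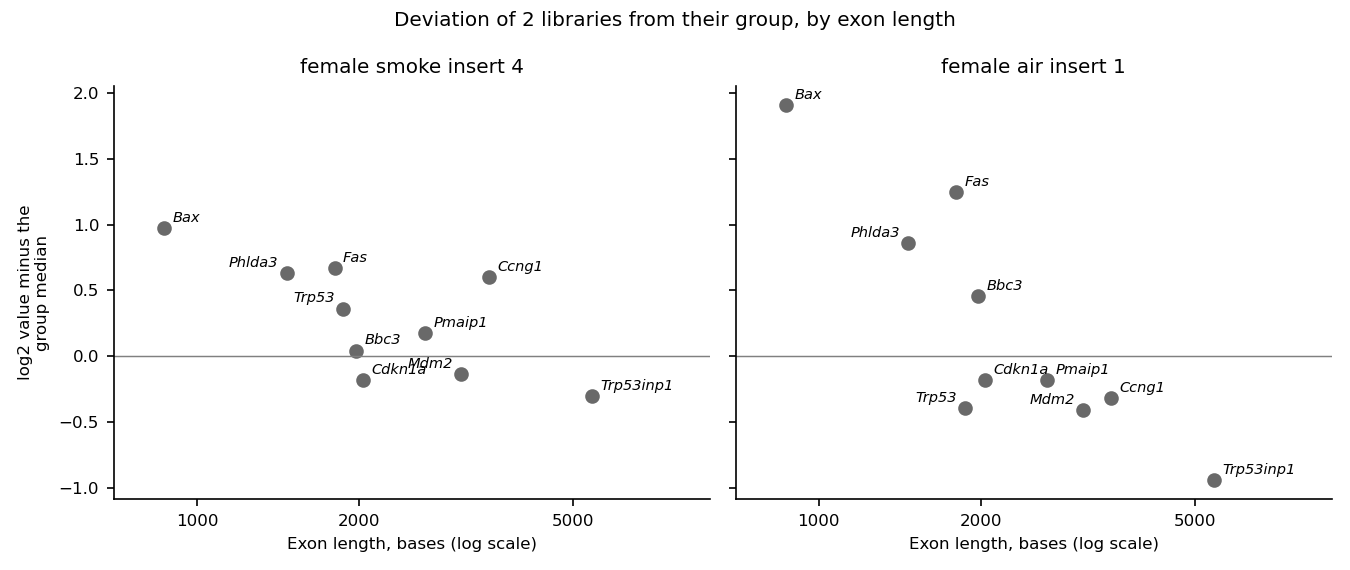
Deviation of each of the 10 genes from its group median (vertical axis, log2 of the normalised count plus 1) against its exon length in bases (horizontal axis, log scale), in female smoke insert 4 and female air insert 1. Points are genes; Bax, with the shortest exons, lies highest in both libraries, at 0.97 in female smoke insert 4 and 1.91 in female air insert 1, and Trp53inp1, with the longest, lies lowest.

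The first comparison asks how the 10 genes differed between female smoke and female air. Of the 10, 4 rose, against 15.5% of all genes tested, and none fell, against 19.3% of all genes. Pmaip1 rose most, 3.02-fold, followed by Cdkn1a (2.19-fold), Ccng1 (1.71-fold) and Trp53 itself (1.54-fold). Mdm2, Bbc3, Bax, Fas, Phlda3 and Trp53inp1 did not pass the test. The median log2 fold change over the 10 genes was 0.40, beside -0.0026 over all genes tested. Once both libraries with a length trend were left out, Bax and Phlda3 passed too and 6 of the 10 rose, against 21.9% of all genes. Folds and adjusted p-values are from limma on log2(normalised count + 1), called at an adjusted p under 0.05.

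In male smoke against male air, Trp53, Mdm2, Cdkn1a and Pmaip1 rose (4 of 10, against 9.76% of all genes) and Bbc3 fell (1 of 10, against 12.2%). The rise was again greatest in Pmaip1 (2.26-fold), then in Mdm2 (1.68-fold), followed by Trp53 and Cdkn1a (1.47-fold). Ccng1 missed the threshold by little, at an adjusted p of 0.0502 by limma. The median log2 fold change was 0.39, beside -0.0058 over all genes. Here the count depended on the libraries that share the estimate of spread, for 8 of the 10 genes were called, 7 higher and Bbc3 lower, when the male libraries were tested alone (21.3% of all genes higher and 24.1% lower) or when both female libraries with a length trend were left out (22.5% higher and 24.7% lower). The added genes in both settings were Ccng1, Bax and Phlda3.

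**Figure D2:**
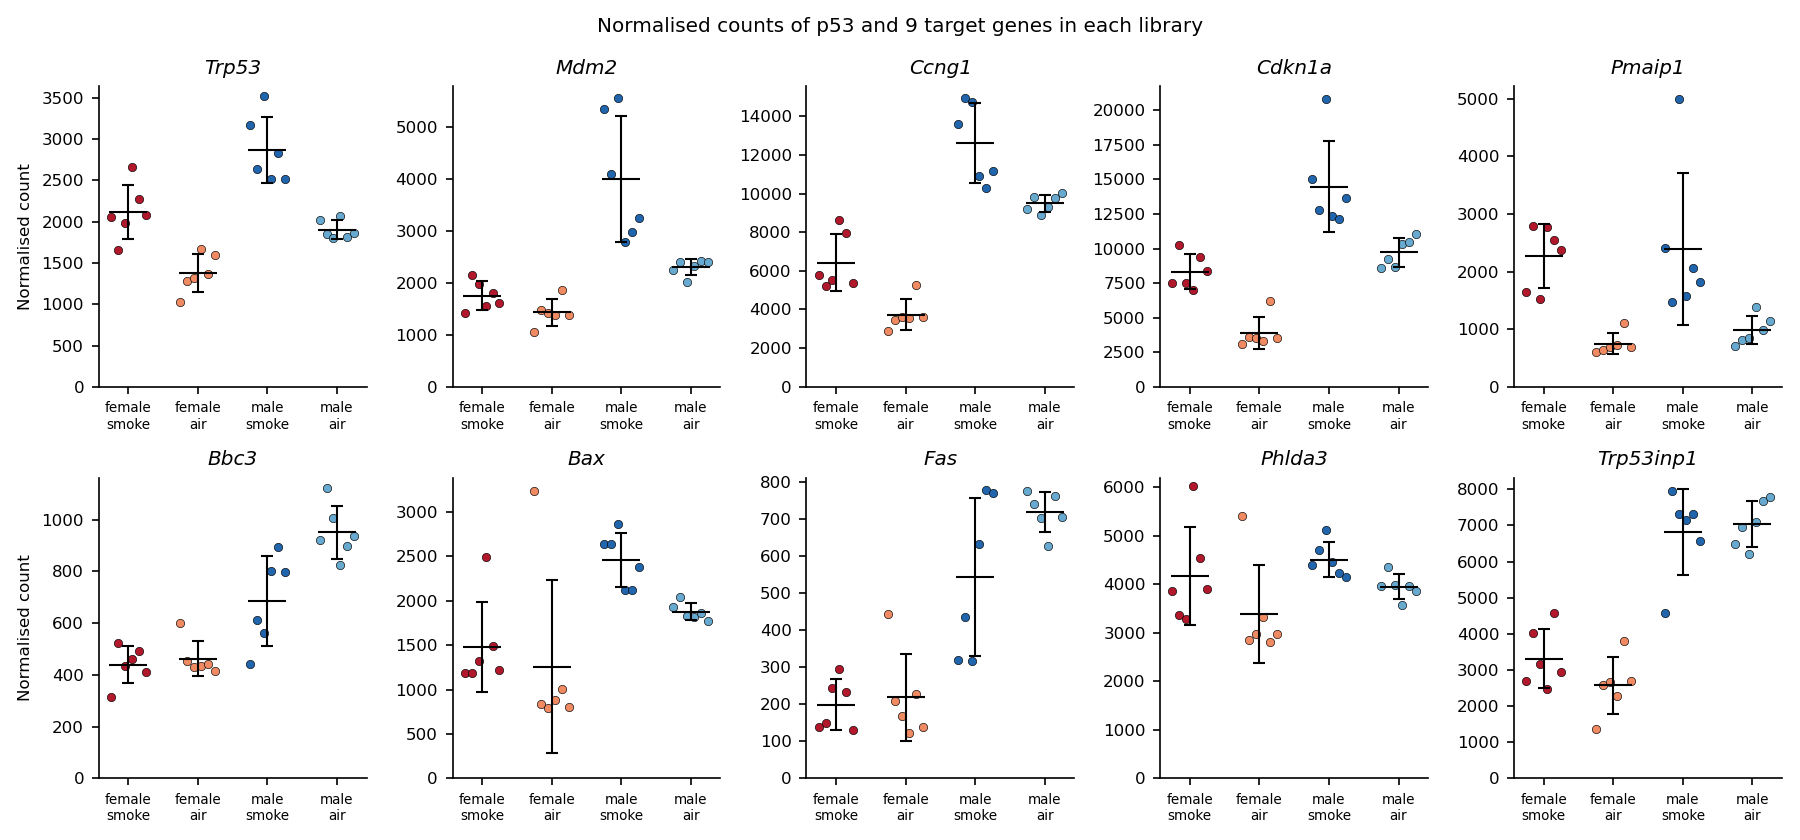
Normalised counts (vertical axes, from 0) of the 10 genes in female smoke, female air, male smoke and male air. Points are the 6 libraries of a group in the order of insert number, the long bar is the group mean and the whiskers are 1 SD; the male smoke libraries lie above every male air library in Trp53, Mdm2, Ccng1, Cdkn1a, Pmaip1 and Bax.

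Trp53 (mm10 chromosome 11, 69580359 to 69591873, plus strand) stood higher in smoke in both sexes. Its lowest, median and highest normalised counts were 1657, 2066 and 2655 in female smoke and 1024, 1343 and 1667 in female air. They were 2512, 2734 and 3516 in male smoke and 1803, 1853 and 2073 in male air. Every male smoke library lay above every male air library, and 5 of 6 female smoke libraries lay above every female air library. The log2 fold changes were 0.62 ± 0.12 in female cells (SE, n = 6 per group; limma, adjusted p = 0.000411) and 0.58 ± 0.12 in male cells (adjusted p = 0.00113). Both passed under all 39 alternative settings, with fold changes between 0.47 and 0.69 in female and between 0.45 and 0.71 in male cells. How reads shared with the mouse pseudogene Trp53-ps were counted is not given in the sources used here.

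The feedback genes came next. Mdm2 (chromosome 10, 117688875 to 117710758, minus strand), whose product degrades p53, had lowest, median and highest counts of 1411, 1711 and 2149 in female smoke and 1056, 1401 and 1861 in female air. In male smoke they were 2776, 3659.8 and 5559, against 2018, 2357 and 2413 in male air. The groups overlapped in female cells, where the fold change of 0.30 ± 0.16 missed the threshold (adjusted p = 0.153) and did so under all 39 alternatives, and did not overlap in male cells (0.75 ± 0.16, adjusted p = 0.00175). The male smoke libraries formed a high and a low set, with inserts 1 to 3 at 4082 to 5559 and inserts 4 to 6 at 2776 to 3237.

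Ccng1 (chromosome 11, 40748552 to 40755286, minus strand) encodes cyclin G1, which recruits a phosphatase to Mdm2. Its lowest, median and highest counts were 5223, 5675 and 8615 in female smoke and 2877, 3587 and 5277 in female air, and 5 of 6 smoke libraries lay above every air library. In male smoke they were 10276, 12384 and 14957, against 8871, 9552 and 10017 in male air, with no overlap. The female difference passed (0.78 ± 0.14, adjusted p = 0.000349). The male one was 0.39 ± 0.14, and 15 of 39 alternatives brought it under the threshold, among them edgeR on recovered reads (0.46, adjusted p = 0.0311). Of these 15, 8 were limma fits with 1 library left out, with adjusted p-values of 0.0268 to 0.0483. That library was female smoke insert 2, 4 or 5, female air insert 1 or 5, or male smoke insert 4, 5 or 6.

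Cdkn1a (chromosome 17, 29090979 to 29100722, plus strand) encodes p21, the inhibitor of cyclin-dependent kinases that carries the cell cycle arrest ordered by p53. Its lowest, median and highest counts were 7008, 7941 and 10260.4 in female smoke and 3109.7, 3527 and 6239 in female air. The lowest smoke library lay above the highest air library, insert 5, which stood apart from the other 5 air inserts at 3109.7 to 3579. In male smoke the counts were 12152, 13227 and 20849, against 8572, 9767 and 11065 in male air, again with no overlap. The log2 fold changes were 1.13 ± 0.15 in female cells (adjusted p = 2.24e-05) and 0.56 ± 0.15 in male cells (adjusted p = 0.0122). The female smoke libraries overlapped with the male air ones in range.

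Pmaip1, Bbc3 and Bax belong to the BCL2 family, which decides whether mitochondria release the factors that start apoptosis. Pmaip1 encodes Noxa, a small protein that blocks the survival factor Mcl1. Its lowest, median and highest counts were 1533, 2461 and 2791 in female smoke and 613, 696 and 1116 in female air. In male smoke they were 1479.9, 1941 and 5002, against 704, 925 and 1389 in male air. No smoke library overlapped with the air libraries of its sex, and male smoke insert 3 stood far above the other 5, at 1479.9 to 2412. The log2 fold changes were 1.59 ± 0.24 in female cells (adjusted p = 6.4e-05) and 1.18 ± 0.24 in male cells (adjusted p = 0.00141), and leaving out any 1 library left the male value between 0.94 and 1.29. Pmaip1 thus had the highest fold change of the 10 genes in each sex, above 98.0% of all genes tested in female cells and 97.2% in male cells.

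Bbc3 (chromosome 7, 16309583 to 16318334, plus strand) encodes Puma, another pro-death member that p53 is known to raise, and it was the member that fell. Its lowest, median and highest counts were 443, 706 and 893 in male smoke and 823, 929 and 1122 in male air. Of the male smoke libraries, 5 of 6 lay below every male air library, and the change of -0.51 ± 0.15 passed (adjusted p = 0.0185). Without male smoke insert 1, the lowest, it was -0.39 with an adjusted p of 0.0596. The counts were 315, 447 and 521 in female smoke and 415, 437 and 601 in female air, a difference of -0.08 ± 0.15 (adjusted p = 0.721) that changed sign without female smoke insert 1 (0.01). In male smoke, inserts 1 to 3 held 443 to 612 and inserts 4 to 6 held 799 to 893.

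Bax (chromosome 7, 45461695 to 45466898, minus strand) encodes the protein that forms the pore itself. It had lowest, median and highest counts of 1184, 1266 and 2487 in female smoke and 788, 862 and 3241 in female air. Both maxima were the libraries with a length trend, and the 5 other female smoke libraries, at 1184 to 1488, lay above the 5 other female air libraries, at 788 to 1006. With all libraries the difference was 0.41 ± 0.25 (adjusted p = 0.217). Without female air insert 1 it was 0.73 (adjusted p = 0.000505), and without both it was 0.57 (adjusted p = 5.27e-05). In male smoke the counts were 2125, 2510.1 and 2866, against 1775, 1845 and 2039 in male air, without overlap. The male difference of 0.39 ± 0.25 missed the threshold with all libraries (adjusted p = 0.285), and the same 0.39 passed when female air insert 1 no longer entered the spread (adjusted p = 0.0312) or when the male libraries were tested alone (adjusted p = 0.00185).

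Fas (chromosome 19, 34290659 to 34327770, plus strand) encodes the receptor that triggers death when a neighbouring cell presents its ligand. It was the member with the lowest counts. They were 132, 190.4 and 296 (lowest, median and highest) in female smoke and 123, 188 and 444.2 in female air, with wide overlap (-0.07 ± 0.28, adjusted p = 0.880). In male smoke they were 316, 535 and 778, against 627, 723 and 777 in male air (-0.50 ± 0.28, adjusted p = 0.215). Male smoke inserts 1 to 3 held 316 to 437, below all male air libraries, and inserts 4 to 6 held 634 to 778, with insert 5 just above the highest male air library and the other two within the male air range. Fas passed under 0 of 39 alternatives in either sex.

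Phlda3 (chromosome 1, 135766085 to 135769134, plus strand) encodes a protein that keeps the kinase Akt from the membrane. Its lowest, median and highest counts were 3287, 3884 and 6019 in female smoke and 2815, 2978 and 5415 in female air, with female air insert 1 the only air library above 3329.9. The difference was 0.31 ± 0.14 (adjusted p = 0.104), and 0.45 without that insert (adjusted p = 0.00315). Without both libraries that have a length trend it was 0.34 (adjusted p = 0.00215). In male smoke the counts were 4139.8, 4421 and 5122, against 3563, 3969 and 4351 in male air (0.19 ± 0.14, adjusted p = 0.369).

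Trp53inp1 (chromosome 4, 11156441 to 11174379, plus strand) encodes a nuclear partner of p53 that also acts in autophagy. It had lowest, median and highest counts of 2476, 3054 and 4565 in female smoke and 1371, 2634 and 3803 in female air. The difference of 0.39 ± 0.19 missed the threshold (adjusted p = 0.104) and passed without female air insert 5, the highest (0.52, adjusted p = 0.0294), and with the insert number as a replicate block (0.39, adjusted p = 0.0316). In male smoke the counts were 4587, 7234 and 7957, against 6198, 7026 and 7791 in male air, and the groups lay over each other (-0.06 ± 0.19, adjusted p = 0.846).

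**Figure D3:**
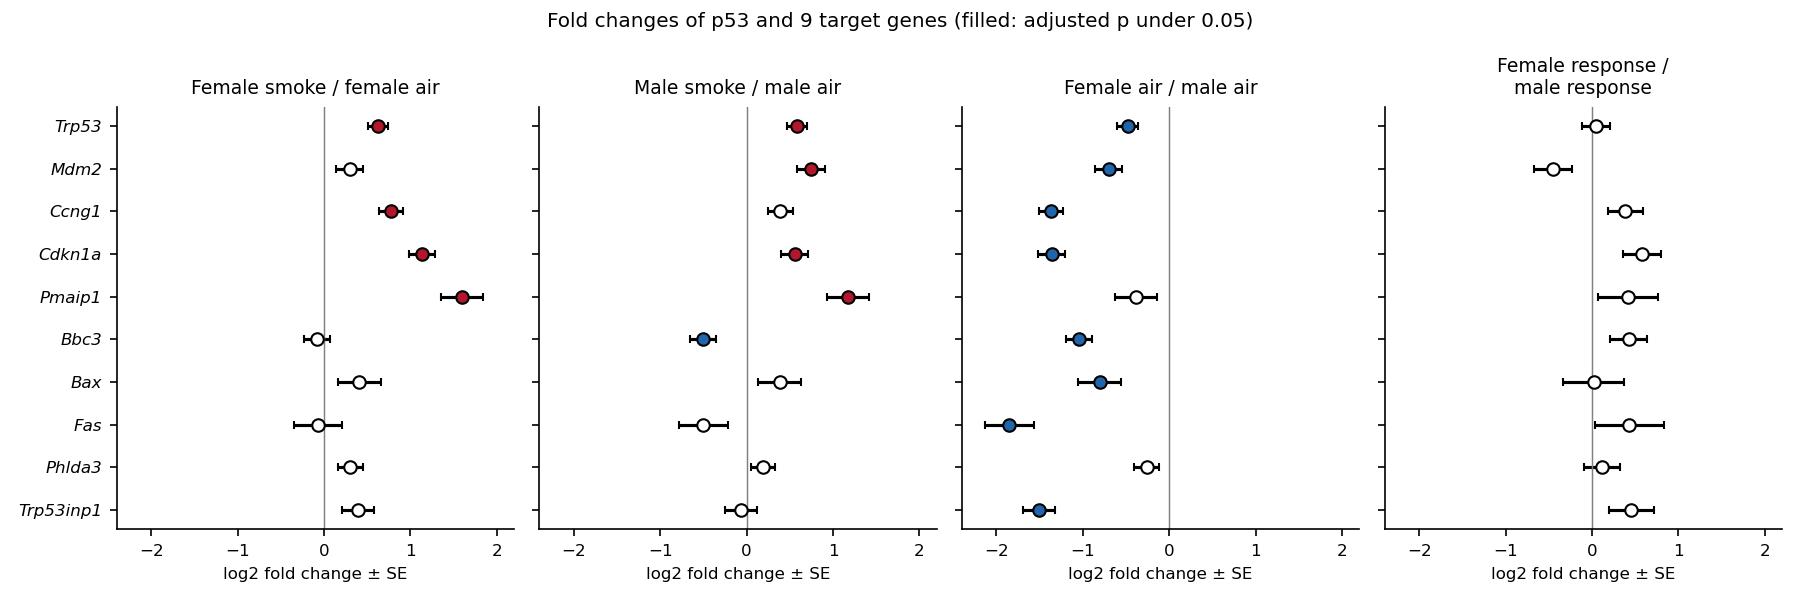
Log2 fold changes of the 10 genes from limma (horizontal axes; points with bars of 1 SE, n = 6 libraries per group) for female smoke over female air, male smoke over male air, female air over male air, and the female over the male smoke response. Filled points passed an adjusted p of 0.05, red for higher and blue for lower; Pmaip1 lies furthest right in both smoke panels, at 1.59 and 1.18, and all 10 genes lie left of 0 in the air panel.

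Every female smoke library lay above every female air library in 2 of the 10 genes, Cdkn1a and Pmaip1, against 6.73% of all genes. In male cells 6 did so (Trp53, Mdm2, Ccng1, Cdkn1a, Pmaip1 and Bax), against 11.0% of all genes. The authors' deposited tables, each made by them from the 12 libraries of 1 comparison, list 4 of the 10 genes as higher and 0 as lower in female smoke. For male smoke the authors' deposited table lists 7 as higher and Bbc3 alone as lower, the count that was also found here with the male libraries alone.

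Whether female and male cells responded to a different degree was tested as the female smoke response minus the male one. By limma none of the 10 genes passed (0 of 10, against 1.03% of all genes), and 1, Cdkn1a, had an unadjusted p under 0.05. Its female response exceeded the male one by 0.58 ± 0.22 on the log2 scale (unadjusted p = 0.0141, adjusted p = 0.227). edgeR and DESeq2 also called 0 of the 10, with 2 and 3 at an unadjusted p under 0.05. Mdm2 was the 1 gene of the 10 whose fitted response was smaller in female cells (-0.45 ± 0.22, adjusted p = 0.400). Differences of these sizes were thus not detectable, which does not show that the sexes responded alike.

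Between the 2 air groups, 8 of the 10 genes were lower in female air than in male air, against 19.0% of all genes. None was higher, against 2713 of all 13549 genes. This comparison shares the female air libraries with the female smoke comparison and the male air libraries with the male one. The median log2 difference was -0.92, beside 0.019 over all genes tested. Fas differed most (-1.85 ± 0.28, adjusted p = 1.56e-05), with 123 to 444.2 in female air and 627 to 777 in male air. Trp53inp1 (-1.51 ± 0.19, adjusted p = 7.92e-07), Ccng1 (-1.37 ± 0.14, adjusted p = 5.48e-08), Cdkn1a (-1.36 ± 0.15, adjusted p = 2.25e-07) and Bbc3 (-1.04 ± 0.15, adjusted p = 7.21e-06) were lower too, by a fold between 2.06 (Bbc3) and 2.85 (Trp53inp1).

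Bax (-0.80 ± 0.25, adjusted p = 0.0133), Mdm2 (-0.70 ± 0.16, adjusted p = 0.00116) and Trp53 (-0.48 ± 0.12, adjusted p = 0.00204) differed less. All of the 8 called genes except Bax had every female air library below every male air library (7 of 10, against 16.7% of all genes). Of the 8, Bax lost its call by the count tests, at -0.55 by edgeR (adjusted p = 0.134) and -0.57 by DESeq2 (adjusted p = 0.0969). Pmaip1 (-0.39 ± 0.24, adjusted p = 0.209) and Phlda3 (-0.26 ± 0.14, adjusted p = 0.159) did not pass, though Phlda3 did without female air insert 1 (-0.40, adjusted p = 0.00546). Phlda3 also passed by limma without both libraries that have a length trend (-0.40, adjusted p = 0.000145). Under scaling by library total the median of all genes moved to -0.115, and Phlda3 was then called too (-0.39, adjusted p = 0.00705). The authors' deposited table lists 7 of the 10 as lower in female air and 0 as higher.

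**Figure D4:**
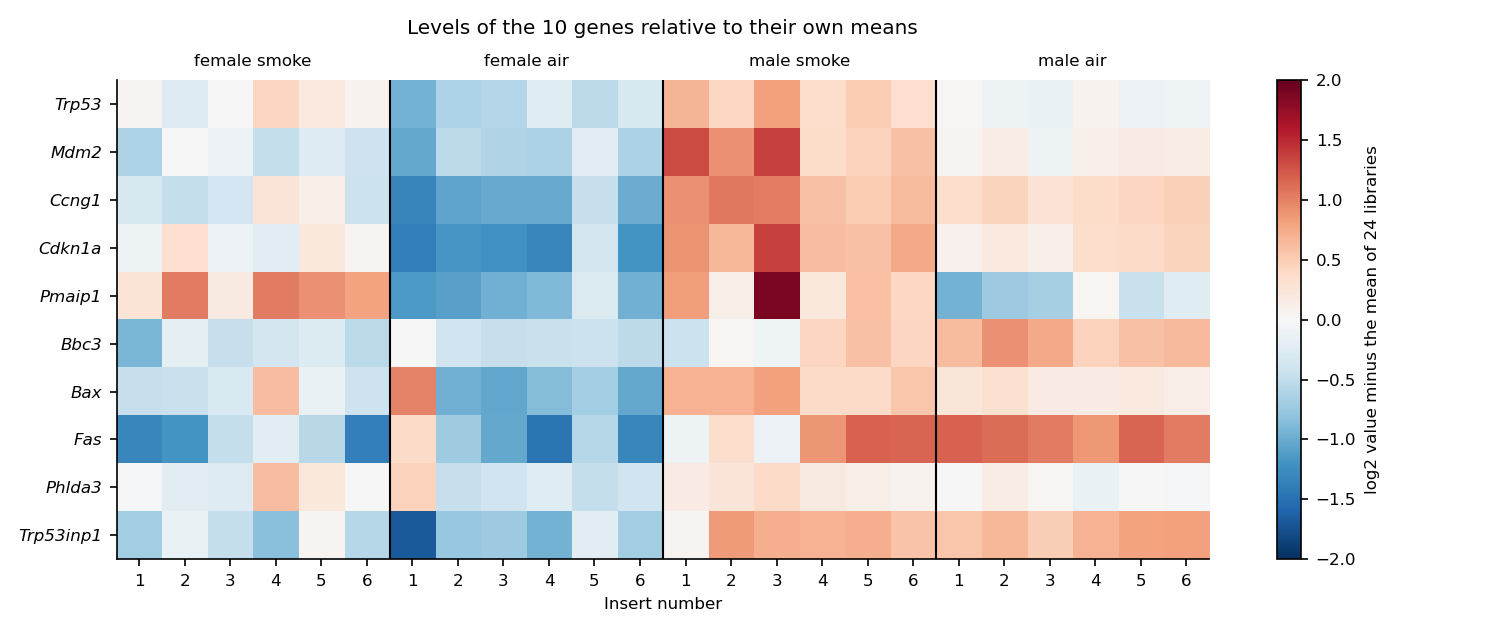
Level of each of the 10 genes in each of the 24 libraries, as log2(normalised count + 1) minus the mean of that gene over the libraries (colour, from -2 to 2), with columns by group and insert number. Female air columns are blue for most genes, and female air insert 1 is red for Bax, Fas and Phlda3. In male smoke, inserts 1 to 3 lie higher on the colour scale than inserts 4 to 6 for Mdm2, Ccng1 and Bax. For Bbc3 and Fas they lie lower.

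Male smoke inserts 1 to 3 and inserts 4 to 6 did not overlap for 5 of the 10 genes, against 33.2% of all genes. Inserts 1 to 3 were higher in Mdm2, Ccng1 and Bax and lower in Bbc3 and Fas. The same split left 4 of the 10 genes apart in male air, against 33.5% of all genes. In female air it left 2 apart (34.9% of all genes) and in female smoke 2 (16.3%). The labels do not say that these inserts were handled apart, and the 2 sets were formed after seeing the data. With inserts 1 to 3 alone, limma called 6 of the 10 genes in male cells (5 higher, against 7.79% of all genes, and 1 lower, against 10.7%), and with inserts 4 to 6 alone it called 1, Trp53 (against 3.3% higher). In inserts 4 to 6, Cdkn1a stood at 0.26 (adjusted p = 0.557), Mdm2 at 0.33 (0.130), Pmaip1 at 0.63 (0.0691) and Bbc3 at -0.09 (0.692). In female cells inserts 1 to 3 gave 4 genes higher (against 2.83% of all genes) and inserts 4 to 6 gave 6 (against 22.1%), with Trp53, Ccng1, Cdkn1a and Pmaip1 called in each set.

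Levels can be compared between genes only after division by exon length. As normalised counts per kilobase, Cdkn1a was highest in female smoke (4095), male smoke (7112) and male air (4773), and Phlda3 was highest in female air (2313), where Cdkn1a averaged 1905. Fas was lowest of the 10 in female smoke (110.2), female air (121) and male smoke (301), and in male air Pmaip1 was lowest (371), next to Fas (399). Pmaip1 averaged 859 per kilobase in female smoke and 282 in female air, and Bax 1703 and 1449. All female means here include the libraries in which levels drifted with exon length. In female air insert 1, Bax (3241) and Phlda3 (5415) had the highest counts of their group. They did so in female smoke insert 4 too (2487 and 6019).

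Of all 12901 genes ranked by likeness over the 24 libraries, the 5 nearest to Cdkn1a were Pard6b, Slc19a2, Ccng1, Cpne2 and Txnrd1. Likeness was the root mean square difference between log2 values, each centred on its own mean, and it ran from 0.25 for Pard6b to 0.30 for Txnrd1. A fellow member, Ccng1, ranked 3 at 0.28, while Mdm2 ranked 23, Trp53inp1 126, Trp53 156 and Fas 6576. Nearest to Pmaip1 were Plk2 (0.34), Rcc1 (0.38), Rassf1 (0.38), Ehd1 (0.39) and Pop1 (0.41), of which Plk2, a kinase, is itself a listed p53 target. The nearest member to Pmaip1 was Trp53, at rank 170.

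Other genes of the pathway were counted over fixed lists. Of 41 other known p53 targets, 39 were tested. In female smoke 19 of the 39 rose and 2 fell, against 15.5% and 19.3% of all genes. In male smoke 14 rose and 1 fell, against 9.76% and 12.2%. In female air 5 stood higher and 20 lower than in male air. Of all 13549 genes, 2713 were higher there and 2569 (19.0%) lower. The median log2 fold changes were 0.50, 0.43 and -0.45, beside -0.0026, -0.0058 and 0.019 over all genes. With both libraries that have a length trend left out, 21 rose and 4 fell in female smoke. Of all 13549 genes, 21.9% rose and 3218 fell there. In male smoke 20 rose and 3 fell, against 22.5% and 24.7% of all genes. With the male libraries tested alone 24 rose and 2 fell, against 21.3% and 24.1% of all genes, and Eda2r, Aen, Plk3, Polh, Ak1, Zfp365 and Gdf15 then passed in male cells as well. The lists were chosen with results of these data known, so their counts describe and do not test. The shares of all genes given here apply to the lists below in the same settings. Alternatives under which a list gene gained or lost a call are counted without leave-one-out settings and without the sets of inserts 1 to 3 and 4 to 6.

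Of 8 targets in cell death, 5 rose in female smoke and 4 in male smoke, and 7 were lower and 1 (Perp) was higher in female air than in male air. The death receptor Tnfrsf10b rose by 1.39 ± 0.20 in female and 0.69 ± 0.20 in male cells, and Apaf1, the scaffold of the apoptosome, by 1.31 ± 0.20 and 0.86 ± 0.20. Eda2r, a receptor of the same family as Tnfrsf10b, rose by 1.52 ± 0.28 in female cells and stood at 0.63 ± 0.28 in male cells (adjusted p = 0.109). The nuclease Aen rose by 0.90 ± 0.20 in female cells and stood at 0.41 ± 0.20 in male cells (adjusted p = 0.141).

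Of 8 tested targets in growth arrest, 5 rose in female smoke and 3 in male smoke. The kinase Plk2 rose by 0.95 ± 0.17 in female and 1.15 ± 0.17 in male cells, and Gtse1, which itself restrains p53, by 1.25 ± 0.17 and 0.63 ± 0.17. Plk3 rose in female cells (1.27 ± 0.21) and stood at 0.53 ± 0.21 in male cells (adjusted p = 0.0789). Sfn, the epithelial 14-3-3 sigma protein, rose in male cells (1.18 ± 0.31) and stood at 0.13 ± 0.31 in female cells (adjusted p = 0.792). None of these 4 genes passed the test of the difference between the responses with all libraries, and Gtse1 and Plk3 did with inserts 4 to 6 alone.

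Of 8 DNA repair genes, 3 rose in female smoke, namely the lesion polymerase Polh (0.81 ± 0.17), Pcna, the sliding clamp of replication (0.75 ± 0.20), and the nuclease Ercc5 (0.48 ± 0.12), while Xpc, which recognises damaged bases, fell (-0.56 ± 0.08). Of these Pcna also rose in male smoke (0.57 ± 0.20), a call that was lost by edgeR (adjusted p = 0.0657) and under 3 other alternatives, and its female call was lost with the female libraries alone (adjusted p = 0.0539). Polh stood at 0.45 in male smoke and passed by edgeR (0.55, adjusted p = 0.0214). Without both libraries that have a length trend, 3 repair genes rose and 2 fell in each sex.

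Of 8 tested targets in metabolism and redox control, 2 rose and 1 fell in female smoke, and 3 rose and 1 fell in male smoke. Without both libraries that have a length trend, 4 rose in female smoke. The glutaminase Gls2 rose by 1.74 ± 0.45 in female and 1.82 ± 0.45 in male cells and Tigar by 0.78 ± 0.14 and 0.44 ± 0.14. The male call of Tigar was lost with scaling by library total (adjusted p = 0.0833) and with the insert number as a block (adjusted p = 0.0545). Gls2 averaged only 10.7 counts in male smoke and 2.51 in male air. The male air mean lay below the minimum that the filter set for the mean over all libraries. The male rise of Gls2 thus rests on few counts, and its female counts are not reported here. The mTOR inhibitor Ddit4 rose in male cells (0.95 ± 0.30) and stood at 0.62 ± 0.30 in female cells (adjusted p = 0.115). The adenylate kinase Ak1 was the 1 gene of the 39 whose responses differed by the test, at -0.92 ± 0.22 in female and 0.43 ± 0.22 in male cells, a difference of -1.35 ± 0.32 (adjusted p = 0.0384). Its call was lost with scaling by library total (adjusted p = 0.0538) and with the block (adjusted p = 0.0663). Thbs1, a matrix protein gene among the 39, passed this test by edgeR (-2.77, adjusted p = 0.0331), by DESeq2 and without both libraries, and Zfp365 without both libraries (2.00, adjusted p = 0.0486) and under 3 other alternatives.

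Among 7 secreted and other targets, 4 rose in female smoke and 3 in male smoke. Zfp365, a zinc finger gene, rose by 2.94 ± 0.41 in female cells, where it averaged 165 counts in smoke and 22.7 in air, and stood at 0.67 ± 0.41 in male cells (421 in smoke and 259.6 in air; adjusted p = 0.252). The receptor kinase Epha2 rose by 1.95 ± 0.25 in female and 1.29 ± 0.25 in male cells. The stress cytokine Gdf15 rose by 1.62 ± 0.49 in female cells and stood at 1.01 ± 0.49 in male cells (adjusted p = 0.145), and it was lower in female than in male air (-2.51 ± 0.49). Its female call was lost by edgeR (1.23, adjusted p = 0.0629) and with the female libraries alone (adjusted p = 0.0759).

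**Figure D5:**
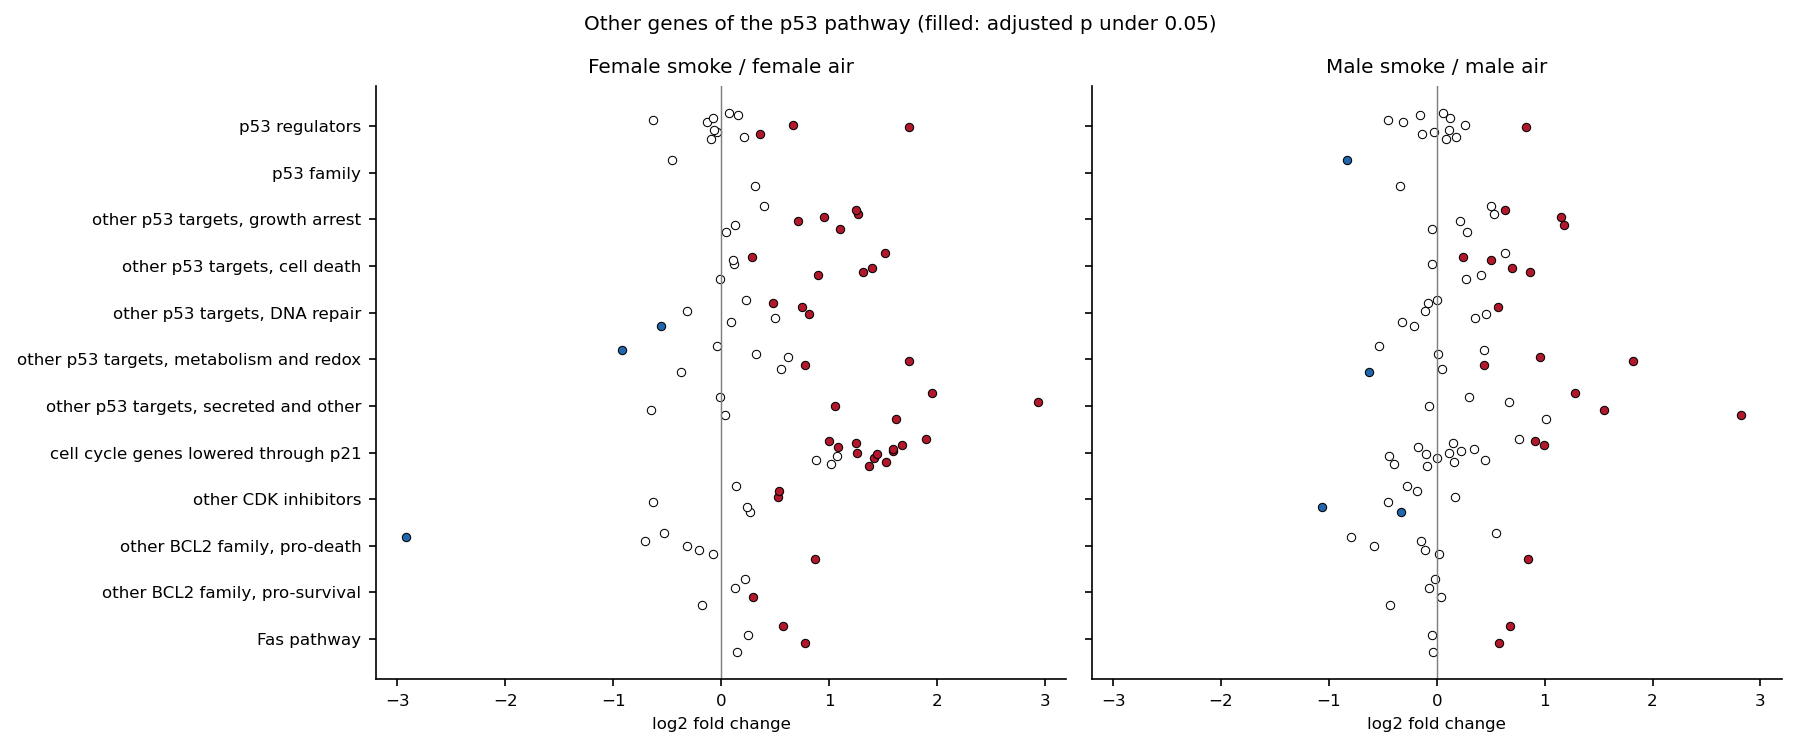
Log2 fold changes of other p53 pathway genes from limma (horizontal axes) in female smoke over female air and male smoke over male air, 1 row per list and 1 point per gene. Filled points passed an adjusted p of 0.05, red for higher and blue for lower; 12 of 15 cell cycle genes are red in the female panel and 2 of 15 in the male panel.

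Of 12 regulators of p53, 3 rose in female smoke, against 15.5% of all genes. They were the damage kinases Chek1 (1.74 ± 0.30) and Chek2 (0.67 ± 0.20) and the phosphatase Ppm1d (0.36 ± 0.09). In male smoke Chek1 alone rose (0.83 ± 0.30), 1 of 12 against 9.76% of all genes. The male call of Chek1 was lost by edgeR (0.78, adjusted p = 0.0783), by DESeq2 (adjusted p = 0.0571) and under 2 other alternatives, and Ppm1d lost its call with the female libraries alone (adjusted p = 0.0547). With both libraries that have a length trend left out, 3 regulators rose and 3 fell in female smoke. Of all 13549 genes, 21.9% rose and 3218 fell there. In male smoke 2 regulators rose and 2 fell, against 22.5% and 24.7% of all genes. Of the 2 other p53 family genes, Trp63 passed in neither sex and Trp73 fell in male smoke (-0.83 ± 0.26), where it averaged 161 counts against 268 in male air, and lost its call with quantile scaling (-0.66, adjusted p = 0.0507).

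Genes of the cell cycle that are known to be lowered when p21 acts formed another list. In female smoke 12 of 15 rose and none fell, with a median log2 fold change of 1.37. The helicase gene Mcm5 rose by 1.90 ± 0.28, the transcription factor Mybl2 by 1.68 ± 0.36 and the mitotic kinases Aurkb and Bub1 by 1.59 ± 0.37 and 1.59 ± 0.39. In male smoke 2 of 15 rose, one of them Mybl2 (0.99 ± 0.36), with a median of 0.15. Mybl2 lost this call under 3 alternatives (adjusted p = 0.0519 to 0.0645), and Mcm5, at 0.77, gained one under 5. None of the 15 passed the test of the difference between the sexes. The female count depended on the inserts, since 1 of 15 was called with inserts 1 to 3 alone, against 2.83% of all genes, and 15 with inserts 4 to 6 alone, against 22.1%, and 10 were called with both libraries that have a length trend left out.

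Of 6 other inhibitors of cyclin-dependent kinases, Cdkn2c (0.53 ± 0.18) and Cdkn2b (0.52 ± 0.15) rose in female smoke, and Cdkn1c (-1.07 ± 0.33) and Cdkn1b (-0.34 ± 0.11) fell in male smoke. Cdkn2b lost its call with the female libraries alone (adjusted p = 0.0540) and Cdkn1c with quantile scaling (-0.90, adjusted p = 0.0784). Among 7 other pro-death genes of the BCL2 family, Bak1, which forms pores as Bax does, rose in both sexes (0.87 ± 0.14 in female and 0.84 ± 0.14 in male cells), and Hrk fell in female smoke (-2.92 ± 0.64), where it averaged 8.15 counts against 38.4 in female air. Of the 4 pro-survival genes Bcl2l1 alone rose, in female smoke (0.30 ± 0.11), and lost its call by edgeR (0.25, adjusted p = 0.107), with the female libraries alone (adjusted p = 0.124) and under 2 other alternatives. Downstream of Fas, 2 of 4 tested genes rose in each sex, among them Casp8 by 0.78 ± 0.20 in female and 0.58 ± 0.20 in male cells. With the female libraries alone 0 of the 4 were called in female smoke (Casp8 adjusted p = 0.0503), and the male call of Casp8 was lost with scaling by library total (adjusted p = 0.0938) and with no filter on low values (adjusted p = 0.0508). The Fas ligand gene averaged 0.202 counts over all libraries and was not tested.

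Cell type markers moved with the same comparisons. Of 10 squamous genes, 8 rose in female and 9 in male smoke, and their summed counts were 303637 to 418896 in female smoke, 136618 to 284915 in female air, 22075 to 55274 in male smoke and 5535 to 11790.4 in male air. Of 7 tested club and secretory genes, 5 fell in female and 3 in male smoke, with sums of 25903 to 140828 in female smoke, 145867 to 371636 in female air, 75579 to 263837 in male smoke and 397646 to 683725 in male air. Of 10 multiciliated genes, 8 fell in female smoke, and in male smoke 0 fell and 1 rose (median log2 fold change -1.15), and their sums overlapped between male smoke, at 11950.3 to 17116, and male air, at 12886 to 17134. In female smoke those sums were 12852 to 25155 and in female air 22538 to 36762. Of 8 basal genes, 1 rose and 1 fell in female smoke and 2 rose and 2 fell in male smoke.

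Of 5 ionocyte genes, 4 fell in each sex, with sums of 61.1 to 162 in female smoke, 234 to 382 in female air, 69.8 to 209 in male smoke and 251 to 417 in male air. Of 5 tuft cell genes, 2 fell in female and 1 in male smoke, with sums of 69.5 to 351 in female smoke, 374 to 592 in female air, 892 to 1825 in male smoke and 3405 to 4399 in male air. Of 3 tested neuroendocrine genes, 2 fell in female smoke and 0 in male smoke, and no library summed above 333.

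Among cells foreign to an epithelium, 2 of 7 fibroblast genes were tested and both fell in each sex. The list summed to 22.8 to 160 in female smoke, 290.2 to 1509 in female air, 29.7 to 97.0 in male smoke and 167 to 430 in male air, with the matrix gene Lum at 0 in every library of both smoke groups. Adgre1, the macrophage marker, was at 0 in all female libraries and all male air libraries, and Ptprc averaged at most 3.63 in any group. The leukocyte list nevertheless summed to 5178 to 131020.2 through Lyz2, which secretory cells of the airway also express. Of 4 tested leukocyte genes, 1 rose and 2 fell in female smoke, and 2 rose and 0 fell in male smoke. The endothelial list summed to at most 63.5 in any library. The part that any of these cell types had in the levels of the 10 genes was not tested, and in bulk RNA fewer cells of a type cannot be told apart from less RNA per cell.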

How the data were processed

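RNA-seq libraries of 24 inserts of mouse tracheal epithelial cells in 4 groups were followed, with libraries from an NEBNext Ultra II kit, per the labels' protocols. The values are normalised counts, a signal that the authors made by dividing gene counts by size factors with DESeq2, per the submitters' processing notes, which also name FastQC 0.11.9, Trimmomatic 0.38.0, HTSeq and the build GRCm38/mm10. Which aligner and strand setting were used is not given in the sources used here. The authors' deposited tables hold log2 fold changes, Wald scores, p-values and adjusted p-values of DESeq2 for 3 comparisons, per the file headers. Their fold changes run as air over smoke and male over female and were turned here.

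Genes with a mean of 10 or more were tested by limma 3.58.1 (R 4.3.3) with a trend on log2(normalised count + 1), with 1 term per group over all 24 libraries, two-sided, and with Benjamini-Hochberg adjustment over the 13549 genes. Whole reads were recovered from the steps of the values in 23 of 24 libraries (100% of values whole within 0.001), not in male smoke insert 5. The count tests of edgeR 4.0.16 and DESeq2 1.42.0 were run on those reads without that library. The other alternatives changed the pseudocount, the filter, the scaling, the variance model, the insert number as a block and the libraries used. The limma, edgeR and DESeq2 fits were tested on simulated data. Promoter windows are RefSeq's on GRCm38.p6, and gene spans and exon lengths are from the deposited refGene annotation on mm10.

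All 10 genes are named in both smoke comparisons and in the air comparison, while only some of them are named for the difference of responses. Of each pathway list, up to 4 genes called in a smoke comparison are named, by the larger absolute log2 fold change (2 such genes are not reported here), and other genes of a list named beside them (Perp, Trp63, Thbs1, the Fas ligand gene and single cell type markers) were chosen after their values were seen. For Cdkn1a and Pmaip1 the 5 most like genes are named, leaving out predicted gene models and Riken clones. The 10 genes and the lists were chosen with earlier results of these data known.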

Additional observations from a re-analysis of the deposited data

Results flagged for a closer look

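In 7 of 40 sets of 6 libraries (10 genes in 4 groups), the highest or the lowest library stood apart from the nearest other one. Its gap, as a share of the group's range on the scale of log2(normalised count + 1), exceeded Dixon's 95% critical value for 6 samples. Chance alone gives about 1 in 20 such sets, and libraries flagged for several genes are not independent. Female air insert 1 was the highest library of its group for 3 genes, at a normalised count of 601 for Bbc3, 3241 for Bax and 5415 for Phlda3. Female air insert 5 was the highest for Cdkn1a, at 6239, and for Pmaip1, at 1116. Female smoke insert 4 was the highest for Bax, at 2487. Male smoke insert 1 was the lowest for Trp53inp1, at 4587.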

How the results depend on the processing

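Each value was recomputed under 39 alternative settings, of which 3 were chosen after seeing the data: leaving out both libraries with a length trend, inserts 1 to 3 alone and inserts 4 to 6 alone. Restriction to the groups compared gives the difference of responses no other value. Of the member fold changes, 550 kept their direction and side of the threshold, 19 gained a call, 7 lost one and 14 changed sign, none of them called. With single libraries left out these numbers were 930, 13, 1 and 16. The cause of each change below was not tested.

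All genes called in female smoke numbered 4713, but 2857 with only the groups compared and 656 with inserts 1 to 3. In male smoke they numbered 2979, but 6148 with only the groups compared, 6398 without both libraries with a length trend and 931 with inserts 4 to 6, where the count of the 10 genes called was 8, 8 and 1 in place of 5. In the air groups 5282 became 2859 with inserts 1 to 3. For the difference of responses 140 became 212 with quantile scaling, 506 with DESeq2, 840 without both libraries, 40 with inserts 1 to 3 and 637 with inserts 4 to 6. With single libraries left out, the counts over all genes ran from 2110 to 4596 in male smoke, the highest without female air insert 1, and from 75 to 431 for the difference of responses.

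In female smoke the log2 fold change changed sign for Bbc3 (0.079 with inserts 4 to 6), Bax (-0.068 with inserts 1 to 3), Phlda3 (-0.033 with inserts 1 to 3) and Fas (0.078 with quantile scaling, 0.034 without both libraries, 0.41 with inserts 4 to 6). In male smoke Fas did (0.058 with inserts 4 to 6). The difference of responses changed sign for Trp53 (-0.11 without both libraries, -0.057 with inserts 1 to 3), Pmaip1 (-0.16 with inserts 1 to 3), Phlda3 (-0.24 with inserts 1 to 3) and Bax (-0.24 with edgeR, -0.21 with DESeq2, -0.56 with inserts 1 to 3). With single libraries left out, values ran from -0.13 to 0.011 for Bbc3 and -0.21 to 0.16 for Fas in female smoke, from -0.11 to 0.048 for Trp53inp1 in male smoke, and from -0.037 to 0.11 for Trp53 and -0.14 to 0.34 for Bax in the difference of responses.

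The labels do not say what an insert number shares, and not every pair of libraries with the same number correlated at over 0.1, so the numbers were not taken as pairs. Deviations of libraries with the same number correlated at -0.21 to 0.37 between female smoke and female air, -0.24 to 0.12 between male smoke and male air and 0.03 to 0.20 between the air groups, and 2, 1 and 1 of 6 libraries correlated best with their own number. With the insert number as a replicate block, 5 of the 10 genes were called in female smoke (Trp53inp1 was added, 0.39, limma adjusted p = 0.0316), 5 in male smoke, 8 between the air groups and 0 for the difference of responses, and 4534, 2798, 5202 and 112 of all genes.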
